A study of Homo sapiens with 4 samples.

Results

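Y RNAs, vault RNAs, the RNA subunits of RNase MRP and RNase P, and the RNA of the signal recognition particle are short structural RNAs made by RNA polymerase III (Pol III). The 10 genes RNY1, RNY3, RNY4, RNY5, VTRNA1-1, VTRNA1-2, VTRNA2-1, RMRP, RPPH1 and RN7SL1 were followed here, of 20045 genes named on the array. Every probe annotated to one of these symbols was taken, which gave 10 probes of 47318, 1 for each gene. All 10 symbols matched the current RefSeq symbols of assembly GRCh38.p14. The genes were selected on their annotation and with the measured signals and the group comparison of these 4 arrays already known, among them the low log2 fold change of RNY5, so their differences between the groups are given as a description and not as tests.

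The arrays were Illumina bead arrays of U87 cells, an established human glioblastoma line, 24 h after transfection with RNAiMax at 25 nM oligo. In the piR-598 mimic group (2 arrays) the cells received a synthetic mimic of the PIWI-interacting RNA piR-598. In the NC oligo group (2 arrays) they received a purchased control oligo from an inhibitor product line, so effects of the kind of molecule and of its sequence cannot be told apart. The duplicates were described as biological, with no statement on separate passages, and the p-values reflect the spread among these arrays alone, which may be technical. Of 9 glial and glioblastoma markers, VIM, CD44, TNC, NES, SOX9 and OLIG2 were detected on all 4 arrays, whereas GFAP, S100B and SOX2 were detected on none. OLIG2 was dim, with a mean signal of 119.3, where the lowest signals detected on the arrays were 96.0 to 102.9. Markers of other cell types were mixed. At their brightest probes AIF1, CD14, MAP2 and TEK were dim too, with mean signals of 114.7, 113.1, 105.5 and 113.4. CD68, SNAP25 and GAD1 were brighter, at 2844.5, 416.2 and 350.0. Of 6 leukocyte markers with a probe, AIF1, CD14 and CD68 were detected on all 4 arrays and 3, PTPRC among them, on none. Of 6 neuronal markers SNAP25, MAP2 and GAD1 were detected on all 4 arrays, SLC17A7 on 1, and RBFOX3 and SYT1 on none. Of 5 endothelial markers TEK was detected on all 4 arrays, KDR on 2, PECAM1 on 1, and CDH5 and VWF on none. On the mimic arrays the summed unscaled signals of all probes of these 3 lists, undetected ones included, were 5154 to 5599, 1901 to 2015 and 567 to 613. They were 5525 to 5561, 2163 to 2174 and 606 to 619 on the NC oligo arrays. These sums still hold the difference in brightness of the whole arrays, which were dimmer with the mimic. The part of these markers in the results below was not tested.

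RNA polymerase III transcribes short RNAs that carry no protein code, ending them at a run of T residues rather than adding a poly(A) tail. Y RNAs are bound by the Ro60 and La proteins and are known for roles in RNA quality control and in the start of DNA replication. Vault RNAs are part of the vault, a large hollow ribonucleoprotein particle of the cytoplasm. RNase MRP and RNase P are related enzymes built on an RNA core, one cutting ribosomal RNA precursors and the other the leader of tRNA precursors, and the signal recognition particle brings nascent secretory proteins to the endoplasmic reticulum. The labelled cRNA was made with a kit that primes on poly(A), per the labels and the kit's known chemistry. How closely each signal follows the amount of an RNA without such a tail was not tested.

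Most of these RNAs had lower values with the mimic, RNY5 by the most, and none passed the test. With the mimic, 8 of 10 had a negative log2 fold change, against 49.8% of all tested probes, and the median was -0.26 against 0.00 over all tested probes. The exceptions were RNY3 and RN7SL1. All 10 probes passed the filter on detection (detection p under 0.05 on at least 2 arrays), RMRP through the NC oligo arrays alone and the other 9 on all 4 arrays. Of 20188 probes tested with limma, 0 were called at an adjusted p under 0.05 (0% of all, smallest adjusted p = 0.895), so 0 of 10 members were called, and 1102 probes (5.46%) had an unadjusted p under 0.05. The groups did not overlap, with the mimic lower, for RNY1, RNY4, RNY5, VTRNA1-1 and RMRP, or 5 of 10, and this was so for 17.6% of all tested probes. RMRP passed the filter only through the group where it was higher, which favours such a gap. Without it 4 of 9 did not overlap, 7 of 9 had negative log2 fold changes and the median was -0.19. They did not overlap with the mimic higher for 0 of 10 members, and for 17.1% of all tested probes. The median of the members was -0.10 without NC oligo array 1, -0.16 without piR-598 mimic array 2, and -0.06 on the authors' scaled signals.

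The whole arrays differed in brightness in the same direction. The mean unscaled signal was 273.0 and 284.8 on the piR-598 mimic arrays, against 305.8 and 300.0 on the NC oligo arrays, and the medians were 93.7 and 95.8 against 99.4 and 99.5. On unscaled signals the groups did not overlap, with the mimic lower, for 8 of the 10 members and for 52.9% of all tested probes. Normalization to a common distribution removed this shared shift, and 3 of the 8 members then overlapped. The members other than RN7SL1 were dim, each signal lying between 0.92 and 2.12 times the lowest signal detected on its array, and the part of background in their fold changes was not tested. Among the 9908 tested probes whose normalized signal, averaged over the 4 arrays, lay within the range of those members' averages (log2 4.51 to 6.47), 50.1% had a negative log2 fold change and the median was 0.00.

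**Figure D1:**
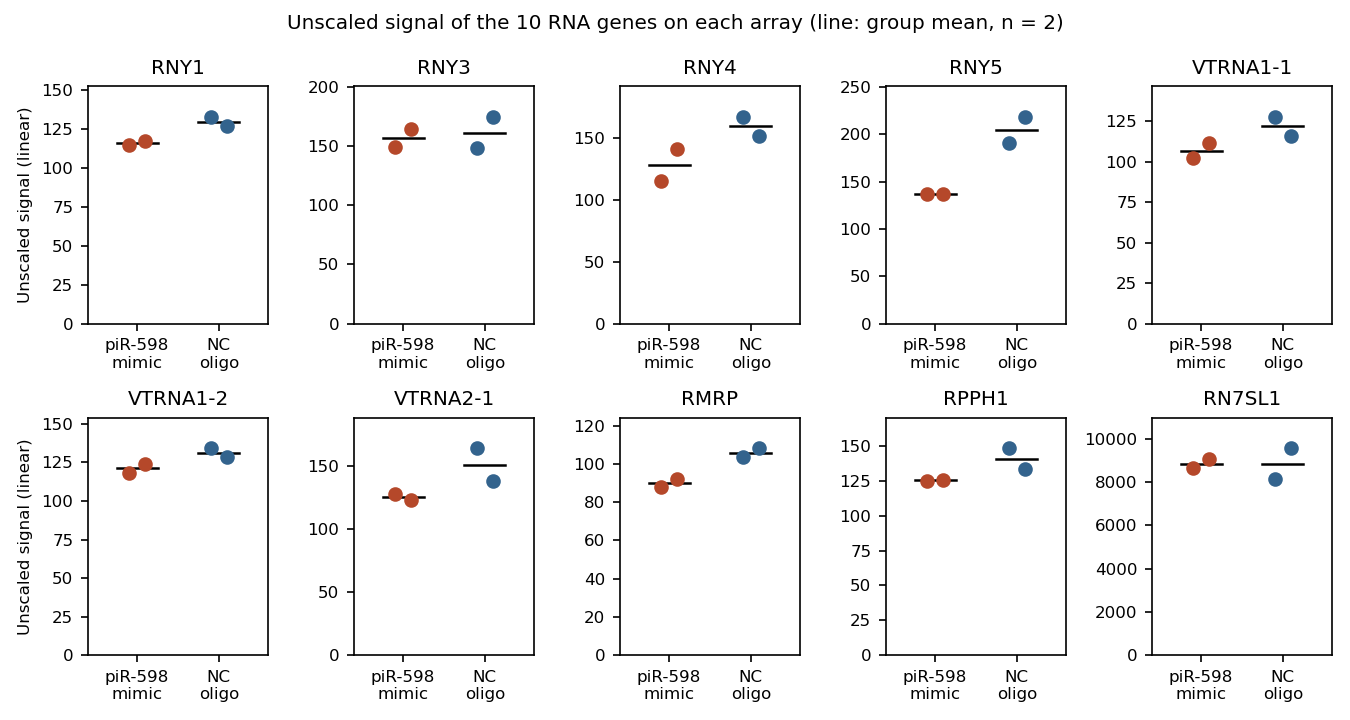
Unscaled signal (linear axis from 0, a scale of its own in each panel) of the 10 RNA genes on the 2 piR-598 mimic arrays (red) and the 2 NC oligo arrays (blue), with a line at each group mean. RNY5 shows the widest gap, with both mimic arrays near 137 and both NC oligo arrays at 191.0 or above, while RNY3 and RN7SL1 overlap.

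The Y RNAs had values of both signs. In RefSeq the 4 genes are neighbours, RNY5 next to RNY4 and RNY3 next to RNY1, with a single locus between the pairs. RNY5 and RNY3 lay at opposite ends of the members' values. The log2 fold changes of the Y RNAs ran from -0.86 to 0.15, with 3 of 4 negative, and whether they differ from each other was not tested. Human Y RNAs have many pseudogene copies, and whether a probe also reads copies was not tested.

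RNY5, the shortest of the human Y RNAs, had unscaled signals of 136.8 and 137.3 on the piR-598 mimic arrays, against 191.0 and 218.2 on the NC oligo arrays. Both mimic arrays lay below both NC oligo arrays, and the lowest of the 4 differences between a mimic and an NC oligo array was -1.11, the highest -0.61 on the normalized log2 scale. Normalized log2 signals averaged 6.04 ± 0.12 (SD, n = 2) in mimic-treated cells and 6.90 ± 0.24 (SD, n = 2) in NC oligo cells. The log2 fold change was -0.86 ± 0.17 (SE, 95% interval -1.24 to -0.48), which ranked 6 from the lowest of 20188 tested probes. It stayed negative without any single array (-1.02 to -0.68). It was -0.46 without background correction, and the authors' scaled signals gave -0.46 too.

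RNY4 had unscaled signals of 115.3 and 141.7 with the mimic, against 167.4 and 152.3 with the NC oligo. The mimic arrays were again both lower, but they stood further from each other (0.55 on the log2 scale) than the group means did. Its log2 fold change was -0.49 ± 0.20 (SE), at -0.22 without piR-598 mimic array 1 and -0.77 without piR-598 mimic array 2. On the authors' scaled signals it was -0.20.

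RNY1, known with RNY3 from work on the start of DNA replication in human cell extracts, had signals of 114.9 and 117.1 with the mimic, against 132.8 and 126.7 with the NC oligo. The groups did not overlap, and the gap was small, at -0.19 ± 0.15 (SE) on the log2 scale and -0.04 on the authors' scaled signals. RNY3 had signals of 148.9 and 164.1 with the mimic, against 147.9 and 174.4 with the NC oligo. The NC oligo arrays enclosed the mimic arrays. Its log2 fold change was 0.15 ± 0.18 (SE) and turned to -0.09 without NC oligo array 1.

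The 3 vault RNA genes all had negative log2 fold changes, with a median of -0.32. Only for VTRNA1-1 did the groups not overlap, and for VTRNA1-2 the sign was not stable. VTRNA1-1 and VTRNA1-2 are neighbours in 1 gene cluster, and VTRNA2-1 lies outside it. Vault RNA genes have promoter elements inside the transcribed part.

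VTRNA1-1, the vault RNA best known for binding the autophagy receptor p62, had signals of 102.3 and 111.4 with the mimic, against 127.6 and 116.0 with the NC oligo. Both mimic arrays were lower, but NC oligo array 2 was only 0.02 above mimic array 2 on the normalized log2 scale. The log2 fold change was -0.32 ± 0.17 (SE), at -0.14 without NC oligo array 1 and -0.07 on the authors' scaled signals. VTRNA1-2 had signals of 118.4 and 124.0 with the mimic, against 134.1 and 128.3 with the NC oligo. Its log2 fold change of -0.06 ± 0.14 (SE) was well within the spread, and it was 0.01 without NC oligo array 1 and 0.01 on the authors' scaled signals.

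VTRNA2-1, also called nc886, is an imprinted RNA known for binding the double-stranded RNA kinase PKR and is no part of the vault in spite of its name. Its signals were 128.4 and 123.6 with the mimic, against 164.3 and 138.5 with the NC oligo. After normalization the groups overlapped, because NC oligo array 2 lay between the mimic arrays. The log2 fold change was -0.34 ± 0.20 (SE), at -0.10 without NC oligo array 1 and -0.58 without NC oligo array 2.

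The RNA cores of the related ribonucleases were both lower in value with the mimic. RMRP, the RNA of RNase MRP, had signals of 87.9 and 92.0 with the mimic, against 103.3 and 108.0 with the NC oligo. Its detection p was 0.595 and 0.386 on the mimic arrays and 0.0338 and 0.00779 on the NC oligo arrays, so it was detected with the NC oligo only and had a bound with the mimic. Normalized log2 means were 4.29 ± 0.04 (SD, n = 2) in mimic-treated cells and 4.74 ± 0.15 (SD, n = 2) in NC oligo cells, and RMRP was at least 1.11-fold lower with the mimic, the detection limit being set at the lowest detected value of each mimic array. This bound holds on that normalized scale only, and it covers the detection limit and not the spread between arrays. The fitted log2 difference was -0.45, against -0.16 without background correction and -0.11 on the authors' scaled table. RMRP could not be tested without either NC oligo array, since it then missed the filter.

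RPPH1, the RNA of RNase P, had signals of 125.4 and 125.6 with the mimic, against 148.5 and 133.6 with the NC oligo. The normalized groups overlapped, at a difference of -0.15 ± 0.17 (SE) on the log2 scale. Leaving out NC oligo array 1 brought it to 0.01. RPPH1 and RMRP share with the Y RNA genes a promoter that lies upstream of the transcribed part. Of the 6 genes with such a promoter 5 had negative log2 fold changes (median -0.32), and of the 4 with internal elements, the vault RNA genes and RN7SL1, 3 had (median -0.19). The 6 include RMRP, which passed the filter only through the group where it was higher. Without RMRP the middle value of the genes with an upstream promoter is that of RNY1, at -0.19, level with the internal median. Whether the kinds of promoter differ was not tested.

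RN7SL1, the RNA scaffold of the signal recognition particle, was the one bright member. Its signals were 8638.6 and 9055.5 with the mimic, against 8161.1 and 9557.7 with the NC oligo, and the NC oligo arrays enclosed the mimic arrays. The log2 fold change was 0.14 ± 0.16 (SE, 95% interval -0.22 to 0.49). Near-identical gene copies exist, so which copy the probe read is uncertain.

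**Figure D2:**
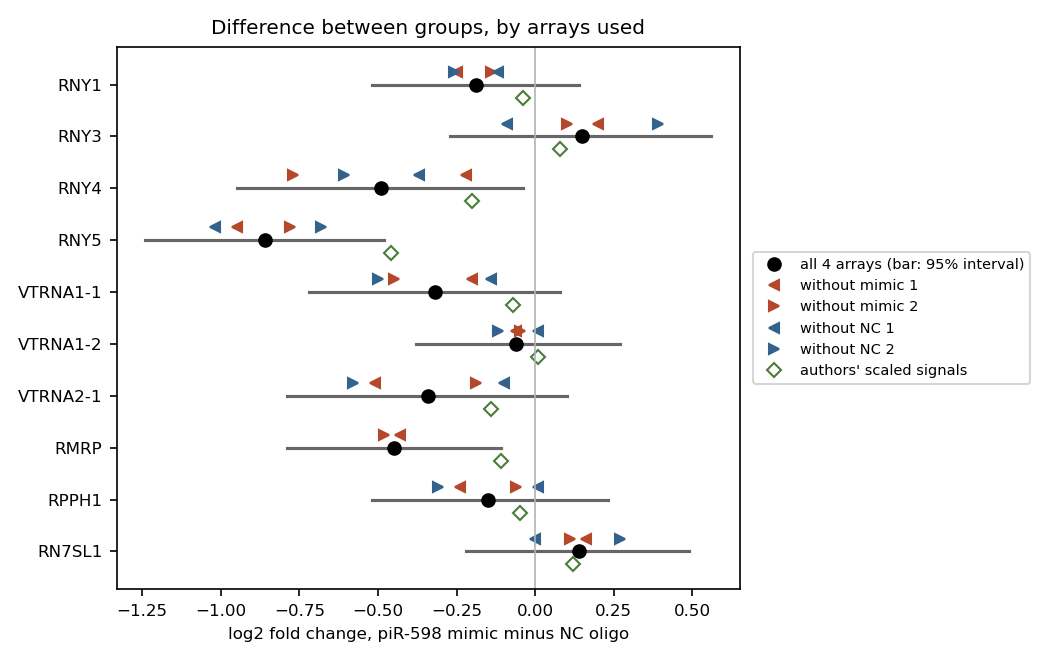
Log2 fold change (piR-598 mimic minus NC oligo) of the 10 RNA genes with all 4 arrays (black, bar: 95% interval from limma), without each array in turn (triangles) and on the authors' scaled signals (green diamonds). RNY5 lies below 0 at each of these settings. Without NC oligo array 1, RNY3 crosses 0 to -0.09, VTRNA1-2 and RPPH1 cross to 0.01, and RN7SL1 falls to 0.00. VTRNA1-2 is also at 0.01 on the authors' scaled signals. RMRP, not detected with the mimic, is drawn at its fitted value of -0.45, which is no bound.

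The spread between arrays of 1 group was as wide as most of these differences. The difference between the group means was larger than the differences within both groups for RNY1 and RNY5, 2 of the 9 members other than RMRP, and for 23.3% of all tested probes. The 95% interval lay wholly below 0 for RNY4 and RNY5, again 2 of these 9, where 2.84% of all tested probes had a negative fold change with an unadjusted p under 0.05. Of the 9908 tested probes in the signal range given above, 696 had an unadjusted p under 0.05 in either direction, against 1102 of 20188. The contrast between the groups was in view when the genes were chosen, and nothing is read from these shares. Counting RMRP at its fitted value, 3 members had such an interval, and 1 had one without NC oligo array 1, without background correction or on the authors' scaled table. One array stood out, as NC oligo array 1 was the highest of the 4 for 6 of 10 members (RNY1, RNY4, all 3 vault RNA genes and RPPH1) and the lowest for RNY3 and RN7SL1. RNY5 and RMRP had their highest value on NC oligo array 2 instead.

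**Figure D3:**
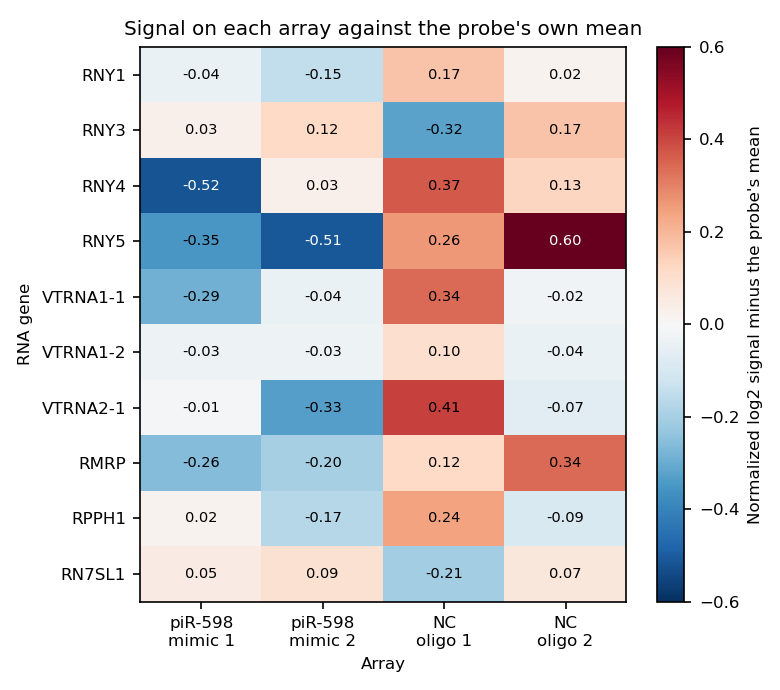
Normalized log2 signal of each RNA gene on each array minus the mean of that probe over the 4 arrays (colour and printed value). NC oligo array 1 is above the mean for 8 of 10 genes, and RNY5 is the gene with the widest span, from -0.51 on piR-598 mimic array 2 to 0.60 on NC oligo array 2.

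Other Pol III RNAs with a named probe gave values of both signs. The 6 such genes had a median log2 fold change of -0.16, with 5 negative, and the groups did not overlap for RNU6ATAC alone. RNU6ATAC, a small nuclear RNA of the minor spliceosome, had unscaled signals of 118.9 and 121.6 with the mimic, against 138.7 and 141.2 with the NC oligo, and a log2 fold change of -0.30 ± 0.14 (SE). Its other probe gave -0.24 ± 0.15 (SE). RNU6-1, the U6 RNA of the major spliceosome, had signals of 1556.2 and 1779.8 with the mimic, against 2556.3 and 1893.7 with the NC oligo. Its normalized groups overlapped, with a log2 fold change of -0.26 ± 0.17 (SE). The log2 fold change was -0.17 ± 0.20 (SE) for RNA5S9, annotated as a 5S ribosomal RNA gene, and -0.16 ± 0.16 (SE) for SNAR-A1. BCYRN1, a brain cytoplasmic RNA related to Alu repeats, had -0.08 ± 0.15 (SE). RN7SK, the RNA that holds the elongation factor P-TEFb inactive, had 0.30 ± 0.21 (SE) at its brighter probe and -0.16 ± 0.16 (SE) at its dimmer one, so its probes disagreed in sign. Without NC oligo array 1 the median of the 6 genes was -0.04. U6, 5S and SNAR genes have near-identical copies that their probes may not tell apart.

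Small nuclear RNAs, mostly made by RNA polymerase II, had lower values as well. All 12 tested genes with symbols starting RNU or RNVU had negative log2 fold changes, from -0.72 to -0.13 with a median of -0.40. The groups did not overlap, with the mimic lower, for 11 of them and for 17.6% of all tested probes. Only 9 had a detection p under 0.01 on all 4 arrays. These 9 were all negative, with a median of -0.52. When either NC oligo array was left out 11 passed the filter, against 12 when either mimic array was. A gene among the 12 thus passed the filter only through the NC oligo arrays, where it was higher, which favours such a gap. It is not among the 9. RNU1-1, RNU1-3, RNVU1-7 and RNVU1-18 share the U1 symbol, and whether their probes tell them apart was not tested. RNU6-1 and RNU6ATAC are among the 12, and RNU105C, also among them, is a nucleolar RNA. On the authors' scaled signals 11 of 12 were negative, with a median of -0.19. The 51 tested C/D box nucleolar RNAs had a median of -0.04 with 31 negative, and the 54 H/ACA and Cajal body RNAs a median of 0.01 with 27 negative. Leaving out single arrays gave medians of -0.09 to 0.00 for the C/D box RNAs and of -0.04 to 0.04 for the others. Against the median of all tested probes these last medians were at 0.00 and 0.01 when arrays were scaled by their medians, and also on the authors' scaled table. Whether the members differ from these classes was not tested.

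The proteins that bind or make these RNAs were taken from lists chosen with earlier results known, and 0 of their 86 tested genes passed the test. Of 14 tested proteins of Ro or Y RNA complexes or of short RNA binding, 11 had negative log2 fold changes, with a median of -0.04. Leaving out single arrays gave medians from -0.09 to -0.04 with 8 or 9 negative. RO60, the Ro protein itself, had -0.26 ± 0.21 (SE), with its other probes at 0.31 and -0.12, and SSB, the La protein that binds the 3' end of new Pol III transcripts, had -0.04 ± 0.24 (SE). Both were singled out for their role. HNRNPK, an RNA-binding protein, had 0.37 ± 0.15 (SE) at its brightest probe and 0.37, -0.16 and -0.16 at the others. IFIT5, an interferon-induced protein that binds short RNAs, had -0.29 ± 0.14 (SE), and RBM47 had -0.24 ± 0.15 (SE).

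The 2 tested vault proteins had negative values. PARP4, the vault's poly(ADP-ribose) polymerase, had signals of 551.2 and 579.2 with the mimic, against 650.2 and 765.5 with the NC oligo, and a log2 fold change of -0.18 ± 0.16 (SE). MVP, the major vault protein, had -0.09 ± 0.14 (SE) and 0.00 at its other probe. The 11 RNase MRP and RNase P proteins had a median of 0.04, with 4 negative. It was -0.04 with 7 negative without piR-598 mimic array 1, and 0.13 with 2 negative without piR-598 mimic array 2. POP4 had 0.24 ± 0.15 (SE), RPP21 0.18 ± 0.16 (SE) and RPP14 0.14 ± 0.15 (SE), all subunits of RNase P. The 8 signal recognition particle proteins and receptor subunits had a median of -0.13, with 6 negative, but of 0.00 with 4 negative without piR-598 mimic array 1 and of -0.08 without NC oligo array 1. Among them SRP72 had -0.26 ± 0.23 (SE), SRP9, which binds the Alu domain of the particle's RNA, had -0.22 ± 0.17 (SE) with its other probe at 0.09, and the receptor subunit SRPRB had 0.15 ± 0.14 (SE).

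The Pol III machinery had members on both sides of 0. Of 12 RNA polymerase III subunits, some shared with RNA polymerase I, 7 had negative log2 fold changes, with a median of -0.04 that ran from -0.11 to -0.01 as single arrays were left out. POLR3B, the second-largest subunit, had signals of 135.7 and 160.0 with the mimic, against 183.6 and 186.2 with the NC oligo, and a log2 fold change of -0.40 ± 0.16 (SE). POLR3E had -0.34 ± 0.15 (SE), and the largest subunit POLR3A had 0.32 ± 0.15 (SE) with its other probe at 0.00. Of 19 initiation factors and regulators 8 were negative, with a median of 0.02 that lay at -0.04 against all tested probes with median scaling and at -0.03 on the authors' scaled table. Without piR-598 mimic array 2 it was -0.03. BDP1, a subunit of the initiation factor TFIIIB, had signals of 82.2 and 92.3 with the mimic, against 108.8 and 105.7 with the NC oligo. Its detection p was 0.971 and 0.357 on the mimic arrays, so it was detected with the NC oligo only. BDP1 thus passed the filter only through the group where it was higher. It was at least 1.17-fold lower with the mimic on the normalized scale, a bound that covers the detection limit and not the spread between arrays. GTF3C6, a subunit of TFIIIC, had 0.34 ± 0.15 (SE), and BRF1, another TFIIIB subunit, had 0.25 ± 0.17 (SE). The Pol III repressor MAF1, chosen for its role, had 0.01 ± 0.21 (SE).

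Genes of 3' end processing and decay of short RNAs were also spread around 0. Of 20 tested, 9 had negative log2 fold changes, with a median of 0.04 that was at -0.01 against all tested probes on the authors' scaled signals. Without NC oligo array 1 it was -0.03, with 13 negative. LARP7, which stabilizes the RN7SK RNA, had 0.33 ± 0.20 (SE) and 0.12 at its other probe. DICER1, the nuclease of microRNA maturation, had -0.26 ± 0.17 (SE), and EXOSC2, a subunit of the RNA exosome, had -0.18 ± 0.16 (SE).

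**Figure D4:**
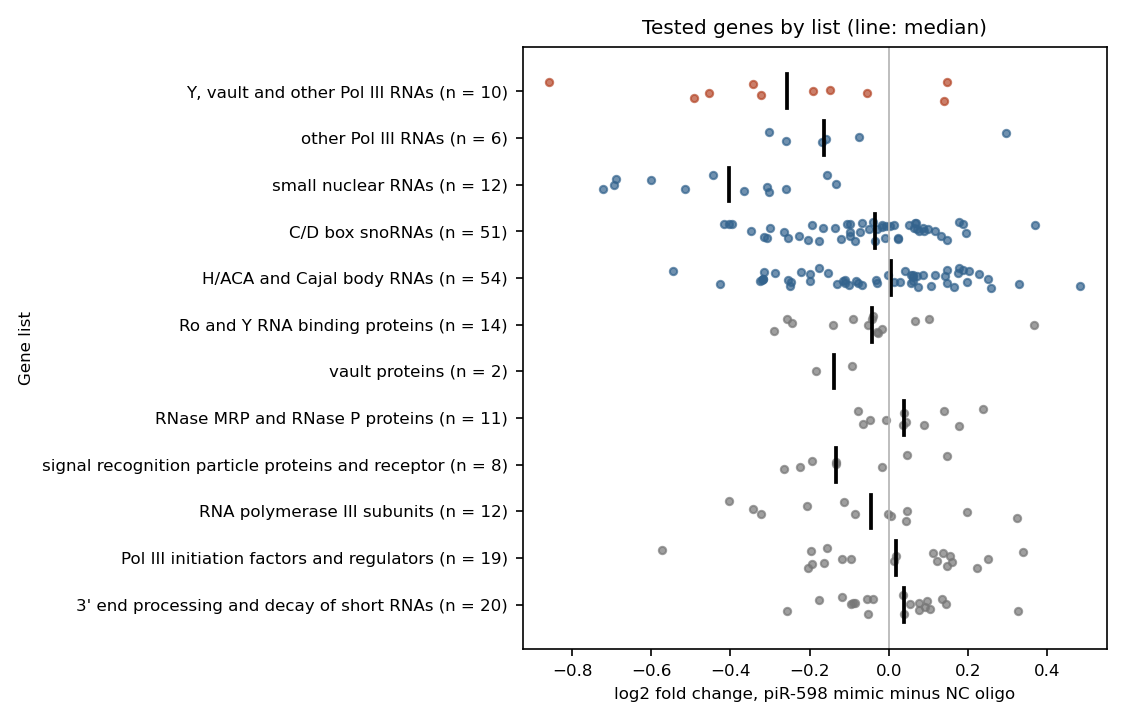
Log2 fold change (piR-598 mimic minus NC oligo) of each tested gene by list, 1 probe per gene, with a line at the median. The Y, vault and other Pol III RNAs followed here (red) have a median of -0.26, or of -0.19 without RMRP. Among the other short RNA lists (blue) it is -0.40 for small nuclear RNAs and -0.16 for other Pol III RNAs. For C/D box RNAs it is -0.04, and for H/ACA and Cajal body RNAs 0.01. The medians of the protein lists (grey) lie between -0.14 and 0.04.

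The named probes whose pattern over the 4 arrays was nearest to that of RNY5 were those of GRAMD2B, GABARAPL2 and MMS19. Each pattern was taken as normalized log2 signals minus the probe's own mean, and the root mean square distances from RNY5 were 0.08, 0.11 and 0.12. The likeness rests on 4 arrays and was not tested. GRAMD2B had normalized log2 signals of 4.49 and 4.33 with the mimic, against 4.94 and 5.29 with the NC oligo. On mimic array 2 BDP1 had the same value of 4.33 and was not detected (detection p 0.357). GRAMD2B may thus have passed the filter only through the group where it was higher, which favours a gap like that of RNY5.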

How the data were processed

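Gene expression was measured on 4 bead arrays of U87 cells. The authors deposited an average signal intensity per probe with a detection p-value beside it, per the file headers, and a second table of scaled intensities. GenomeStudio 2011.1 is the software named in the submitters' processing notes. Set against the first table, the second is the same linear signal times 1 constant per array (1.07 and 1.02 for the piR-598 mimic arrays, 0.951 and 0.970 for the NC oligo arrays), and it served as an alternative.

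Background was removed from the unscaled signals with neqc of limma 3.58.1 (R 4.3.3), which applied normexp with an offset of 16, using the detection p to infer the negative controls, and then quantile normalization and log2. The filter kept 20188 of 47318 probes, those whose detection p was under 0.05 on 2 arrays or more. They were tested together in limma (lmFit, eBayes) as piR-598 mimic over NC oligo, two-sided, with Benjamini-Hochberg adjustment and calls at an adjusted p under 0.05. The steps were tested on simulated data. Genes were named from the platform annotation (30112 probes with 1 symbol, 8 with several, 17198 with none). In lists, the brightest detected probe stood for a gene. The 3 genes of smallest unadjusted p were named per protein list, and the 3 nearest to RNY5, besides all members and other Pol III RNAs. The members and lists were chosen with earlier results of these data known. Alternatives changed the background correction, offset, scaling, source table, detection filter, variance trend, replicate block and arrays used. Slide and scan date were not used here.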

Additional observations from a re-analysis of the deposited data

How the results depend on the processing

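At an adjusted p under 0.05 limma called 0 probes with all 4 arrays under each of the 8 alternatives, the smallest adjusted p there being 0.664 or above, and between 0 and 2 probes when 1 array was left out. The median log2 fold change of the members was -0.26, and -0.06 on the authors' scaled signals, -0.09 without background correction, -0.14 with an offset of 50 and -0.31 with median scaling, which moved the median of all tested probes to -0.09. Leaving out single arrays gave -0.31 to -0.10. VTRNA1-2 was at 0.01 on the authors' scaled signals. Over the single arrays left out, RNY3 ran from -0.09 to 0.39, VTRNA1-2 from -0.12 to 0.01, RPPH1 from -0.31 to 0.01 and RN7SL1 from 0.00 to 0.27. Only the 4 changes of background, offset, scaling or table and the 4 arrays left out can move a fold change here. RNY1, RNY4, RNY5, VTRNA1-1 and VTRNA2-1 were negative in all 8, and RMRP in the 6 where it was tested. For RNY1, RNY4, RNY5, VTRNA1-1 and RMRP the groups did not overlap, which all but fixes the sign when 1 array is left out. With the replicate number as a block, the replicate block fit called 0 probes, left the members' median at -0.26 and changed no call. The labels give the numbers no shared day or culture, and the deviations of same-numbered arrays correlated across probes at r = 0.15. The members other than RN7SL1 lie close to the detection limit, which limits the precision of their values.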
